A study of Mus musculus with 42 samples.

Results

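Reads from antibody genes were followed through 12 RNA-seq libraries of sorted mouse colon stromal cells, to see how they differed when BMP signaling was disrupted in Gli1+ stromal cells. The genes were taken by name from the 4 tables that hold these libraries: every immunoglobulin heavy chain, kappa and lambda constant, variable or joining gene (excluding Ighmbp2, which is a helicase), plus Jchain and Mzb1. This rule found 215 genes of the 17643 listed in any of the 4 tables, and 178 of them were listed in all 4. Of these genes 192 were listed for proximal GS4T, 198 for distal GS4T, 189 for proximal GA3T and 204 for distal GA3T.

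All mice carried Gli1-CreERT2, a tamoxifen-activated Cre recombinase driven by the Gli1 gene, with a Cre-dependent tdTomato reporter. GWTT mice carried no floxed gene and served as controls, GS4T mice carried loxP-flanked Smad4, and GA3T mice carried loxP-flanked Alk3, the BMP type I receptor listed under its gene symbol Bmpr1a. The mice were 2 to 4 months old and of both sexes, received tamoxifen on 5 consecutive days, and tdTomato+ cells were sorted from the proximal or distal colon at day 30. Recombination marks and deletes only in cells in which Gli1 drove Cre and in their descendants, so an immune cell without Cre keeps an intact Smad4 or Alk3 gene. Each genotype and colon segment had 2 libraries, and the labels do not say how many mice went into a library or whether replicates came from separate mice. The p-values therefore measure the spread between these libraries, which may be technical in part. In some groups sex-linked genes, given below, show that the 2 libraries did not come from the same mouse alone. The GWTT libraries of a segment served both its GS4T and its GA3T table, so the comparisons within a segment share their controls and are given side by side only.

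An antibody is built from a pair of heavy chains and a pair of light chains. B cells assemble each chain by joining a variable segment to a joining segment (heavy chains add a diversity segment between them), and the joined exon is spliced to a constant region. The heavy chain constant gene sets the isotype: Ighm and Ighd encode IgM and IgD of naive B cells, the Ighg genes encode the IgG subclasses, and Igha encodes IgA. Light chains are either kappa, from the Igk locus, or lambda, from the Igl locus. Plasma cells of the intestinal lamina propria secrete mostly IgA, whose dimers are held together by the J chain (Jchain) and carried across the epithelium by the polymeric immunoglobulin receptor. Mzb1 is an endoplasmic reticulum chaperone that assists antibody assembly and secretion in plasma cells and marginal zone B cells. Fibroblasts do not rearrange these loci, so antibody transcripts in a stromal sort are normally read as RNA of B lineage cells.

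In the GENCODE M21 annotation of GRCm38 all 215 genes were found by symbol. They comprised 184 variable genes, 9 variable pseudogenes, 11 constant genes, 9 joining genes, Jchain and Mzb1. The heavy chain locus, chr12:113254830-116010093, held 107 of them (97 variable, 7 constant and 3 joining), the kappa locus, chr6:67609713-70726966, held 99, and the lambda locus, chr16:19061618-19260859, held 7. Jchain lies on its own at chr5:88519809-88527891.

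The 5 kappa joining segments are shown because they are the shortest members and their counts are described on their own. The capitals mark the letters TTCGG, which encode phenylalanine and the first glycine of the conserved phenylalanine-glycine motif of functional light chains. These letters were found in 4 of the 5 segments, and Igkj3 does not hold them. The sequences are annotated transcripts of GENCODE M21 on GRCm38, plus strand, at chr6:70722562-70722599 (Igkj1), chr6:70722916-70722954 (Igkj2), chr6:70723223-70723260 (Igkj3), chr6:70723548-70723585 (Igkj4) and chr6:70723886-70723923 (Igkj5).
Igkj1: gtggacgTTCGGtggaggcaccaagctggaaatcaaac
Igkj2: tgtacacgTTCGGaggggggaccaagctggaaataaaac
Igkj3: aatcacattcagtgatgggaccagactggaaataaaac
Igkj4: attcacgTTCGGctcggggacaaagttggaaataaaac
Igkj5: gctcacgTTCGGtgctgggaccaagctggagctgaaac

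Ighv1-81 is shown because it carried at least 510 reads in 9 libraries and 0 in the other 3, and because its neighbours in the Ighv1 family are close to it in sequence. The last 90 bases of the annotated segment are given for Ighv1-81 (chr12:115920279-115920368), Ighv1-80 (chr12:115912344-115912433) and Ighv1-54 (chr12:115193675-115193764), all on the minus strand of GRCm38. Capitals mark the 5 positions at which the 3 are not all alike. Ighv1-80 had 0 reads in the same 3 libraries as Ighv1-81, and Ighv1-54 had reads in all 3. In these 90 bases Ighv1-81 shared 86 with each of its 5 nearest annotated segments, Ighv1-80 and Ighv1-54 among them.
Ighv1-81: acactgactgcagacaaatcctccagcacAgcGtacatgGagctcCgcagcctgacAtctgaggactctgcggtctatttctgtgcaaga
Ighv1-80: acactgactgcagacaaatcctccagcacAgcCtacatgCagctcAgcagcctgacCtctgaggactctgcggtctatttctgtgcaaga
Ighv1-54: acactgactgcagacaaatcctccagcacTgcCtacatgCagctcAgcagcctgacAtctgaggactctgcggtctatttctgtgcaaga

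Likeness of this kind limits single segments, since the authors kept uniquely mapped reads. Each member was cut into windows of 50 bases and compared with 392 annotated immunoglobulin genes. Of the 205 members long enough to give windows, 39 had only windows of their own, 25 had fewer than 50% of their own, and the median was 78.7%. Igha, Igkc and Ighm had only windows of their own, Ighg2c had 94.5%, sharing the rest with Ighg2b, and Igkv1-110 had 49.1%. Values of single variable segments are therefore uncertain where reads could be split among relatives.

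The libraries held 14222902 to 23686940 reads on listed genes, recovered from the deposited normalized counts, and immunoglobulin genes took 0.119% to 3.59% of them. The deleted genes read lower, as far as a count over the whole gene can show: Smad4 was 1604 and 1673 normalized counts in proximal GWTT libraries and 705 and 835 in GS4T (log2 fold change −1.09 ± 0.12 SE, limma adjusted p = 0.010). In the distal colon Smad4 was 1781 and 1703 against 680 and 1171 (−0.96 ± 0.25, limma adjusted p = 0.042). Bmpr1a was 2960 and 3220 against 2233 and 1842 in the proximal GA3T table (−0.61 ± 0.14, limma adjusted p = 0.120) and 3359 and 3485 against 2203 and 2043 in the distal (−0.69 ± 0.11, limma adjusted p = 0.101). GEO's labels name the tissue intestinal epithelium, whereas the 10 defining stromal genes summed to between 745136 and 1220320 normalized counts in every library and the 10 epithelial genes to between 388 and 42633. Gli1 itself was 23.9 in GS4T-Proximal 2 and 34.7 in GA3T-Proximal 2, against at least 642 in every other library. GWTT-Proximal 1, GA3T-Proximal 1 and GA3T-Distal 1 had Xist at 3.01 to 7.61 normalized counts with Ddx3y expressed. The other libraries had at least 17057 of Xist with Ddx3y at 0 or unlisted. GWTT-Proximal 1 and GWTT-Distal 1 thus did not come from the same mouse alone. Nor did the replicates of proximal GWTT, of proximal GA3T or of distal GA3T. By these sex-linked genes proximal GS4T and distal GA3T differed in part from their controls in sex, which the fits did not include.

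Antibody RNA was lower in every knockout group. In the proximal colon the immunoglobulin genes summed to 227962 and 352938 normalized counts in the GWTT libraries and to 79243 and 127607 in the GS4T libraries. Both GS4T libraries lay under both controls, and the GS4T mean of 103425 ± 34198.5 (SD, n = 2) was 64.4% below the GWTT mean of 290450 ± 88371. In the distal colon, where the controls carried more antibody RNA, the sums were 451803 and 582520 in GWTT and 19524 and 126444 in GS4T. The distal GS4T mean was 85.9% below its controls, 7.09-fold, and GS4T-Distal 1 was the library with the least antibody RNA of the 12. Without GS4T-Distal 1 the log2 ratio of the sums moved from −2.82 to −2.03, and without GS4T-Distal 2 to −4.73.

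The Alk3 knockout libraries also lay below their controls. Their sums were 129978 and 173862 in the proximal colon, against 239827 and 371005 in GWTT, so both were below both controls and their mean was 50.3% lower. In the distal colon they were 274016 and 396233 against 515420 and 662931, again without overlap, with a mean 43.1% lower. The control sums differ between the GS4T and GA3T tables because each table was normalized separately. With 2 libraries on each side the smallest exact permutation p is 0.333, so these sums are given without a test. In sorted libraries fewer plasma cells in the tissue, fewer carried into the sort and less antibody RNA per cell cannot be told apart. The plot of the sums by library shows the gap in all 4 tables.

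**Figure D1:**
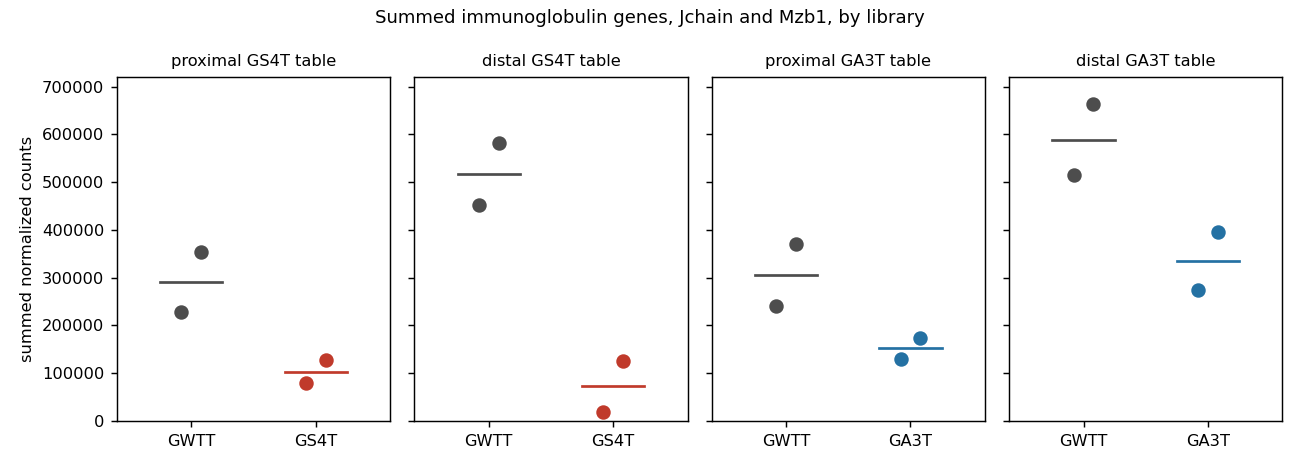
Summed normalized counts of all immunoglobulin genes, Jchain and Mzb1 (vertical axis, from 0), 1 point per library and a line at the group mean, for the 4 tables. Both knockout libraries lie under both GWTT libraries in each table, from 19524 against 451803 and more in the distal GS4T table to 396233 at most against 515420 and more in the distal GA3T table.

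Genes were then tested singly, with limma on log2(normalized count + 1) over all genes with a mean of at least 10, and called where the p adjusted by Benjamini and Hochberg was under 0.05 and the change at least 2-fold. In proximal GS4T libraries the genes called lower were mostly kappa and heavy variable segments, with Jchain and the lambda constant gene Iglc3, while the IgG gene Ighg2c rose. Of the 192 immunoglobulin genes 172 were tested, and 32 were called lower and 1 higher, where 4.36% of all genes tested were called lower and 5.25% higher. Counting all 192, both knockout libraries lay below both controls for 94 (48.96%, against 31.4% of all genes listed) and above them for 6 (against 32.6%). The median log2 fold change over the tested immunoglobulin genes was −1.85, against 0.02 over all genes tested, and over all 192 genes the median log2 ratio of means was −1.87 with groups at 0 set to 3 reads per library. The number called lower was 5 without GS4T-Proximal 1, 13 without GS4T-Proximal 2 and 49 without GWTT-Proximal 1, and 57 with DESeq2 on the recovered reads. Before adjustment of the p 70 were lower and 1 higher, against 7.01% and 8.96% of all genes tested.

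The same fit in the distal colon called 75 of the 183 tested immunoglobulin genes lower and 0 higher by limma, where 6.08% of all genes tested were called lower and 7.88% higher. With the p left unadjusted 106 were lower and 1 higher, against 8.01% and 10.5% of all genes tested, and edgeR and DESeq2 called 0 higher too. Of all 198 listed, 131 had both knockout libraries below both controls (66.2%, against 32.1% of all genes listed), and 3 had both above (against 33.3%). The median log2 fold change was −3.73 over the tested immunoglobulin genes and 0.00 over all genes tested, and the median log2 ratio over all 198 was −2.96. The number called lower was 33 without either GWTT library, 69 without GS4T-Distal 1 and 128 without GS4T-Distal 2.

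Few single genes passed in the Alk3 knockout. In the proximal colon 1 of 184 tested immunoglobulin genes was called lower and 0 higher by limma, with 0.013% of all genes tested called lower and 0.345% higher. The gene was Igkv8-28, a kappa variable segment, at 720 and 431 normalized counts in GWTT and 15.03 and 21.5 in GA3T (log2 fold change −4.88 ± 0.38 SE, limma adjusted p = 0.049). Its call was lost without GWTT-Proximal 1 (−4.51) or GA3T-Proximal 2 (−5.12), with a pseudocount of 0.1 (−4.95) and with edgeR (−4.97). On the unadjusted p 30 were lower and 7 higher, against 3.39% and 6.07% of all genes tested, while edgeR called 0 in either direction and DESeq2 called 27 lower and 3 higher. Of all 15346 genes tested DESeq2 called 293 lower (1.91%) and 676 higher. Both GA3T libraries lay below both controls for 57 of the 189 listed (30.2%, against 27.5% of all genes) and above them for 11 (against 28.4%). The share lying below was thus near that of all genes, and the median log2 ratio over the 189 was −0.83.

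In the distal colon limma called 0 of 193 tested immunoglobulin genes in either direction, as it did for all genes, of which 0% were called lower and 0% higher. With the p left unadjusted 48 were lower and 5 higher, against 2.23% and 5.54% of all genes tested. edgeR also called 0, and DESeq2 called 39 lower and 5 higher. Of all 15414 genes tested DESeq2 called 164 lower (1.06%) and 612 higher. Without GA3T-Distal 1, a fit that leaves 1 library in its group, limma calls appeared among immunoglobulin genes and among all genes. Of the 204 listed, 65 had both GA3T libraries below both controls (31.9%, against 26.5% of all genes) and 11 above (against 27.3%), with a median log2 ratio of −0.72. The cumulative plot sets the immunoglobulin genes of the 4 tables against all genes tested.

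**Figure D2:**
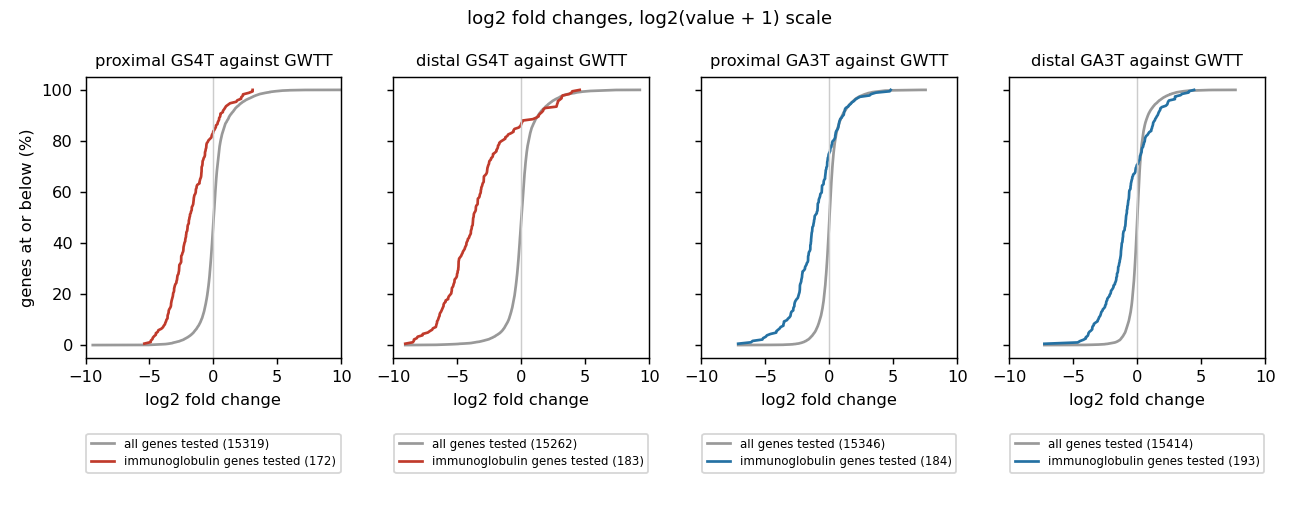
Cumulative share of genes (vertical axis, %) at or below a log2 fold change (horizontal axis, log2(normalized count + 1) scale), for all genes tested (grey) and the immunoglobulin genes tested (coloured), in each comparison with GWTT. The immunoglobulin curves lie to the left of the grey curves, with medians of −1.85, −3.73, −1.14 and −0.88 against 0.02, 0.00, 0.01 and 0.01.

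IgA made up nearly all heavy chain RNA and was lower in every knockout group, whereas the summed IgG genes were not. Igha, the IgA constant region, was 99049 and 154507 normalized counts in proximal GWTT libraries and 36504 and 62595 in GS4T (log2 fold change −1.37 ± 0.41 SE, limma adjusted p = 0.083), and DESeq2 called it lower (−1.37). Distal Igha was 187341 and 250638 against 9144 and 61481 and was called lower (−3.19 ± 0.84, limma adjusted p = 0.044). That call was lost without GS4T-Distal 1 (−1.82), without either GWTT library (−3.40 and −2.98), with a pseudocount of 0.1 (−3.19) and with edgeR or DESeq2 (−2.64 in both). In the Alk3 knockout Igha was 54227 and 81074 against 104213 and 162453 in the proximal colon and 113752 and 182439 against 213720 and 285230 in the distal. Both GA3T libraries were below both controls in each segment, with neither difference called (limma adjusted p = 0.271 and 0.526).

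The IgM gene Ighm varied more between controls than Igha. It was 238 and 1244 normalized counts in proximal GWTT libraries and 73.8 and 155 in GS4T, and 490 and 612 in GA3T against 250 and 1308, which overlap. Without GWTT-Proximal 1 limma called it lower in proximal GS4T (−3.52). Distal Ighm was 4503 and 2201 in GWTT and 25.7 and 396 in GS4T, and was called lower (−4.94 ± 1.18, limma adjusted p = 0.034). That call was lost without either GWTT library (−4.42 and −5.45) and with edgeR (−4.03). Distal GA3T libraries had 930 and 2409 against 5137 and 2505, under both controls but not called (limma adjusted p = 0.295). Ighd, the IgD gene, was listed in the distal tables only, at 19.6 and 32.9 in GWTT against 3.54 and 20.0 in GS4T, and at 6.76 and 150 in GA3T.

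The 4 IgG genes together did not follow IgA. Their sum in the proximal colon was 2366 and 2714 normalized counts in GWTT and 2756 and 2829 in GS4T, so both GS4T libraries were above both controls, by 1.10-fold of the means. In the other 3 tables the groups overlapped: 3452 and 4819 against 225 and 8536 in distal GS4T, 2489 and 2854 against 1531 and 5213 in proximal GA3T, and 3938 and 5484 against 2058 and 6918 in distal GA3T. In each of these 3 tables the libraries numbered 1 and 2 of the knockout lay on opposite sides of the controls. The higher sum in proximal GS4T rested on Ighg2c, and without that gene both GS4T libraries would lie below both controls.

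Among the IgG genes, Ighg2c was called higher in the proximal GS4T libraries. It was 322 and 503 normalized counts in GWTT and 1885 and 1029 in GS4T, with log2 fold change 1.79 ± 0.35 SE (limma adjusted p = 0.033). The call was lost without GS4T-Proximal 1 (1.35) or GS4T-Proximal 2 (2.23). In the other tables Ighg2c split by library: 61.6 and 820 in GWTT against 204 and 1932 in distal GS4T, 338 and 529 against 65.1 and 2146 in proximal GA3T, and 70.3 and 933 against 106 and 2860 in distal GA3T. The lowest value in each of these tables belongs to GWTT-Distal 1 or to a GA3T library numbered 1, the 3 libraries in which 19 heavy variable segments had 0 reads together (described with Ighv1-81). Without GWTT-Distal 1 the fitted sign turned in distal GS4T (1.47 to −0.38) and in distal GA3T (1.10 to −0.76), and without GA3T-Proximal 1 in proximal GA3T (−0.17 to 2.34). The groups overlapped in all 3, and the fitted direction in proximal GA3T turned with the method (limma −0.17, edgeR 1.33, DESeq2 1.34).

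Ighg1 was 151 and 1021 normalized counts in proximal GWTT libraries and 148 and 398 in GS4T, which overlap. In the distal colon it was 2673 and 2006 against 0.886 and 1026 in GS4T, and 3049 and 2283 against 501 and 905 in GA3T, below both controls in both tables and not called (limma adjusted p = 0.174 and 0.101). Limma called it lower in distal GS4T without GS4T-Distal 1 (−1.17) or GS4T-Distal 2 (−10.3), and in distal GA3T without GA3T-Distal 1 (−1.54), as did DESeq2 (−1.93). Ighg2b was 1864 and 1171 against 682 and 1362 in proximal GS4T and 695 and 1945 against 20.4 and 4287 in distal GS4T. For distal Ighg2b the sign turned with the method (limma −1.94, edgeR 0.70, DESeq2 0.70), and its GS4T libraries lay on either side of the controls. It was called lower without GS4T-Distal 2 (−5.77). Ighg3 was the rarest, at 29.0 and 19.5 against 39.7 and 40.9 in proximal GS4T, and 22.5 and 48.4 against 0 and 1291 in distal GS4T, where it was called higher without GS4T-Distal 1 (5.24). In GA3T libraries Ighg3 was 22.0 and 90.9 in the proximal and 65.4 and 218 in the distal colon, the latter above both controls (limma adjusted p = 0.292).

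**Figure D3:**
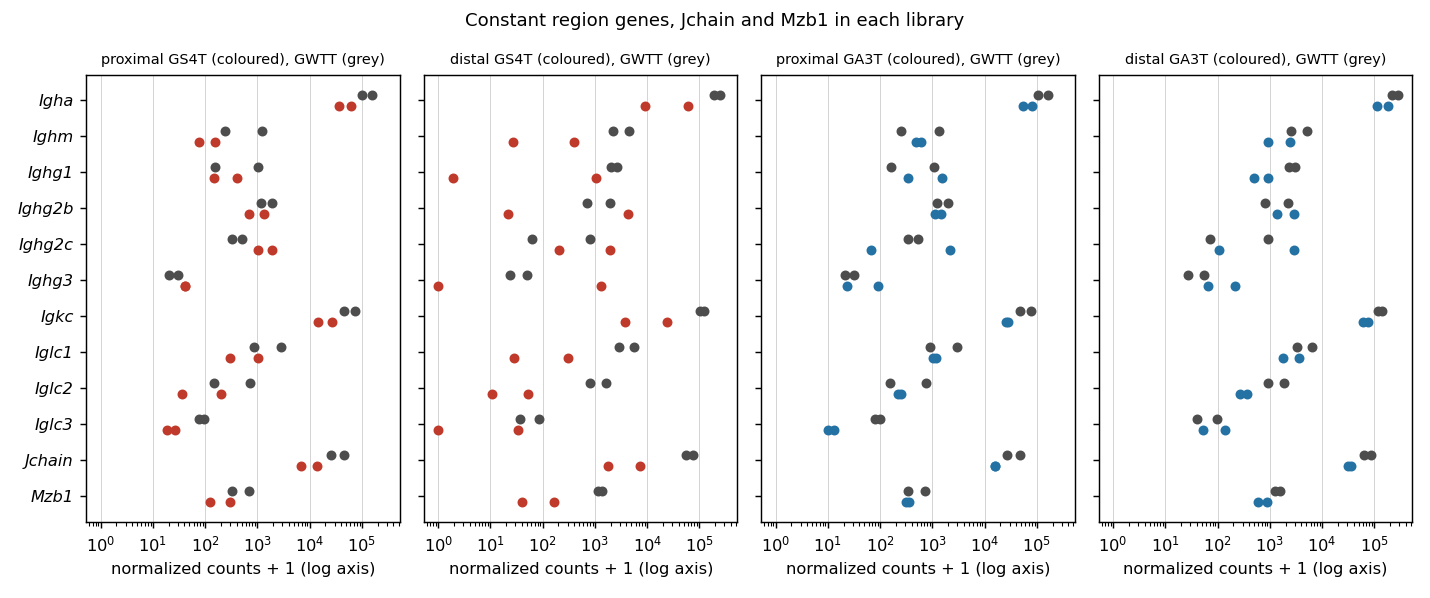
Normalized counts + 1 (horizontal log axis) of the constant region genes, Jchain and Mzb1 (rows) in each library, GWTT in grey and the knockout in colour, for the 4 tables. Igha, Igkc and Jchain lie to the left of their controls in every table, for example 36504 and 62595 against 99049 and 154507 for Igha in the proximal GS4T table, while Ighg2c and Ighg3 lie to the right in that table.

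As a share of heavy chain constant reads, IgA ran from 87.3% to 97.5% over the 12 libraries (median 96.2%). The IgG share was 2.33%, 1.71%, 1.77% and 1.87% in the 4 GWTT libraries. It was 7.01% and 4.31% in proximal and 2.39% and 12.1% in distal GS4T libraries, all 4 above all GWTT libraries. It was 2.72% and 5.999% in proximal GA3T libraries, above their controls, and 1.76% and 3.605% in distal ones, which overlap them. The distal values of 1.77% (GWTT) and 1.76% (GA3T) and the proximal 2.72% (GA3T) come from the 3 libraries with low Ighg2c. The widest 95% Wilson interval of these shares spanned 0.583 points and covers counting error only. The intervals of GS4T-Distal 1 (2.12% to 2.70%) and GWTT-Proximal 1 (2.23% to 2.42%) overlapped. The share of Ighg2c was 0.316% and 0.317% in proximal GWTT libraries and 4.79% and 1.57% in GS4T, and in the distal colon 0.0315% and 0.318% against 2.17% and 2.74%. In GS4T-Distal 1, 230 of the 254 IgG reads were Ighg2c.

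Levels of different genes can be compared only per length. As reads per kilobase of exon, scaled to equal library depth, Igkc ran highest (433 to 14300, median 3962), followed by Igha (209 to 5784, median 1964), Jchain (median 485) and Iglc1 (median 137). Ighg2c and Ighg2b had medians of 30.5 and 29.4, Ighm of 16.5 and Ighg1 of 14.5. These ranges overlap widely, since all of these genes differ between libraries by more than the neighbouring medians differ from each other.

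Kappa light chain RNA was lower wherever IgA was. Igkc, the kappa constant region, was 44604 and 72305 normalized counts in proximal GWTT libraries and 14157 and 26964 in GS4T (−1.54 ± 0.40, limma adjusted p = 0.062), and was called lower without GWTT-Proximal 1 (−1.89) and with DESeq2 (−1.52). Distal Igkc was 102100 and 123563 against 3775 and 23867, and was called lower (−3.56 ± 0.80, limma adjusted p = 0.028). That call was lost without either GWTT library (−3.70 and −3.43) and with edgeR (−3.04). GA3T libraries had 28059 and 26148 in the proximal colon, against 46929 and 76023, and 60765 and 76732 in the distal, against 116477 and 140616. Both GA3T libraries were under both controls in each segment (limma adjusted p = 0.1497 and 0.296), and DESeq2 called the proximal difference (−1.19).

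Of the constant genes called, the lambda genes Iglc1 and Iglc2 had the lowest fold changes, both in distal GS4T libraries. Iglc1 was 2845 and 5705 normalized counts in distal GWTT libraries and 27.5 and 302 in GS4T (−5.44 ± 1.05, limma adjusted p = 0.018). Iglc2 was 1630 and 792 against 9.74 and 51.7 (−5.58 ± 0.76, limma adjusted p = 0.007). The Iglc1 call was lost without GWTT-Distal 2 (−4.94), and the Iglc2 call held without any single library. In the proximal colon Iglc1 was 845 and 2807 against 301 and 1003, which overlap, and Iglc3 was 75.5 and 93.2 against 17.5 and 25.9 (−1.93 ± 0.41, limma adjusted p = 0.040). The Iglc3 call was lost when any of the 4 libraries was left out, with fold changes of −2.20 to −1.66. In the Alk3 knockout DESeq2 called Iglc3 lower in the proximal colon (79.4 and 98.0 against 12.02 and 9.09) and Iglc2 in the distal (1860 and 901 against 357 and 268), which limma did not. The lambda share of light chain constant reads was 4.23% and 5.06% in distal GWTT libraries and 0.976% and 1.59% in distal GS4T libraries. In the proximal colon it was 2.34% and 4.75% against 2.43% and 4.37%, and in GA3T libraries it ran from 3.52% to 5.10%.

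Jchain was called lower in both GS4T tables. It was 25936 and 45218 normalized counts in proximal GWTT libraries and 6758 and 13741 in GS4T (−1.83 ± 0.43, limma adjusted p = 0.049). The proximal call was lost without either GS4T library (−1.32 and −2.34), without GWTT-Proximal 2 (−1.43), with a pseudocount of 0.1 or no filter (−1.83 in both) and with edgeR (−1.82). Distal Jchain was 55665 and 76410 against 1754 and 7215 (−4.20 ± 0.62, limma adjusted p = 0.009), and that call held without any single library and with both count tools. GA3T libraries had 15474 and 15932 in the proximal colon, against 27288 and 47543, and 31150 and 35946 in the distal, against 63503 and 86956 (limma adjusted p = 0.137 and 0.167). Both pairs lay below their controls, and DESeq2 called both differences (−1.26 and −1.17).

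Set against IgA, there were 0.262, 0.293, 0.297 and 0.305 Jchain reads for each Igha read in the 4 GWTT libraries. The ratio was 0.185 and 0.220 in proximal and 0.192 and 0.117 in distal GS4T libraries, below every GWTT library. In GA3T libraries the ratio was 0.285 and 0.197 in the proximal colon and 0.274 and 0.197 in the distal, so 1 library of each pair lay near the controls and the other well below. The libraries with the low ratio in GA3T were those numbered 2, which also had the higher IgG shares. The ratio also moves with Igha itself. Igha reads for each Igkc read were 1.93 and 3.10 in proximal and 1.87 and 2.38 in distal GA3T libraries. They were 2.22 and 2.14 in proximal and 1.83 and 2.03 in distal GWTT libraries, and 2.32 to 2.58 in GS4T libraries. The values 1.83, 1.87 and 1.93 came from the 3 libraries with low Ighg2c. Whether Igha is under-read there was not tested, so the split within GA3T may not measure Jchain.

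**Figure D4:**
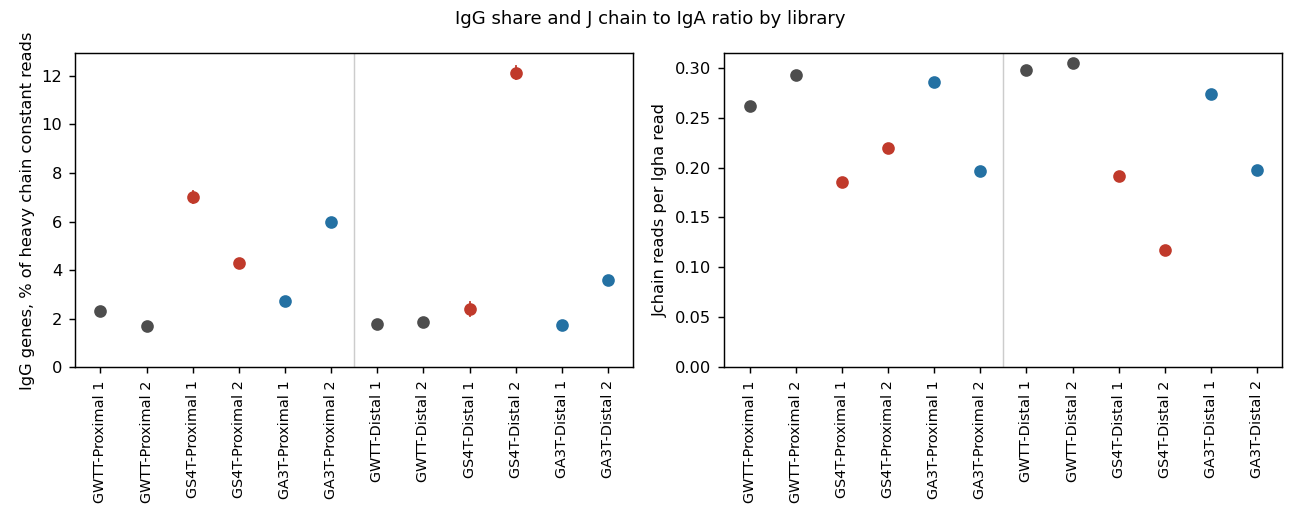
Left, reads on the 4 IgG genes as a percentage of heavy chain constant reads in each of the 12 libraries, with 95% Wilson intervals; right, Jchain reads per Igha read. Points are grey for GWTT, red for GS4T and blue for GA3T. GWTT libraries sit between 1.71% and 2.33% on the left and 0.262 and 0.305 on the right, with all 4 GS4T libraries above the first range and below the second. On the left the intervals of GS4T-Distal 1 and GWTT-Proximal 1 overlap.

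Mzb1 was 328 and 678 normalized counts in proximal GWTT libraries and 121 and 298 in GS4T, both below both controls (−1.31 ± 0.54, limma adjusted p = 0.161). Distal Mzb1 was 1122 and 1365 against 39.9 and 167, and was called lower (−3.90 ± 0.62, limma adjusted p = 0.010). The distal call was lost without GWTT-Distal 2 (−3.76). GA3T libraries had 311 and 356 against 345 and 713 in the proximal colon, which overlap, and 579 and 880 against 1280 and 1553 in the distal (limma adjusted p = 0.147).

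Joining segments are short, and few reads fall wholly on them. The 5 kappa joining segments summed to 129 and 260 normalized counts in proximal GWTT libraries and 60.9 and 68.8 in GS4T, and to 287 and 428 against 6.20 and 47.0 in the distal colon. Igkj2 (39.1 and 51.3 against 0 and 3.52), Igkj3 (78.2 and 119 against 0 and 5.87) and Igkj5 (81.2 and 130 against 3.54 and 11.7) were called lower in distal GS4T libraries, with limma adjusted p of 0.024, 0.018 and 0.014. Igkj3, the segment without TTCGG, thus carried reads at the level of the others. Igkj1 (15.6 and 29.0 against 0.886 and 3.52) and Igkj4 (72.4 and 98.7 against 1.77 and 22.3) were below both controls there and were not called by limma. DESeq2 called both lower (−3.40 and −2.86), edgeR called Igkj1 (−3.37), and limma called both without GS4T-Distal 2 (−3.57 and −4.95). Of the heavy joining segments, Ighj4 was called lower in distal GS4T (108 and 197 against 3.54 and 23.5, limma adjusted p = 0.028), and Ighj3 was 44.0 and 75.5 against 2.66 and 22.3 (limma adjusted p = 0.095), a call gained without GS4T-Distal 2 (−4.004). The calls of Igkj2, Igkj3, Igkj5 and Ighj4 were each lost without either GWTT library, with fold changes of −5.52 to −3.36. In the other 3 tables no joining segment was called by limma. With the p left unadjusted 4 were lower there in proximal GS4T, 2 in proximal GA3T and 0 in distal GA3T. Both knockout libraries lay below both controls for 8 of the 9 joining segments in proximal GS4T (31.4% of all genes listed), for 4 of 9 in proximal GA3T (27.5% of all genes; Ighj4, Igkj4, Igkj5 and Iglj3p) and for 3 of 9 in distal GA3T (26.5% of all genes; Igkj2, Igkj3 and Iglj3p). The count in distal GA3T was near that background.

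A larger share of kappa than of heavy variable segments lay below both controls in the Smad4 knockout. In proximal GS4T libraries 48 of the 80 listed kappa segments (60.0%) lay below both controls and 0 above, and 30 of 88 heavy segments (34.1%) lay below and 4 above, where 31.4% of all genes listed lay below. The heavy share in the proximal colon was thus near that of all genes. In the distal colon 69 of 86 kappa segments (80.2%) and 42 of 88 heavy segments (47.7%) lay below, against 32.1% of all genes. A segment at 0 in a control cannot lie below both controls. GWTT-Distal 1 had 0 reads on 20 of 72 heavy and 1 of 74 kappa segments with at least 100 reads in some library. This holds down the distal heavy share and can make its median less negative, so the distal gap between the chains is a description only. Medians over the segments tested were −2.48 for kappa and −1.09 for heavy in the proximal colon, and −4.87 and −2.14 in the distal. Summed over segments the gap was smaller in the proximal colon: heavy segments went from 17286 and 13583 normalized counts to 6162 and 5811, and kappa segments from 34475 and 53182 to 11642 and 11926. In distal libraries heavy segments went from 13990 and 21743 to 1501 and 11711, and kappa segments from 71447 and 84616 to 2908 and 11854. In distal GA3T libraries the heavy segments summed to 11693 and 24524 against 15938 and 24750, which overlap, while the kappa sums of 46485 and 53794 lay below 81524 and 96295.

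The most abundant segments were not all lower. Igkv1-110, first in the proximal tables, was 4619 and 9524 normalized counts in GWTT and 4983 and 1236 in GS4T, which overlap. Distal Igkv1-110 was 5126 and 11006 against 958 and 1003 (−2.94 ± 0.34, limma adjusted p = 0.004). Igkv1-117 was 1468 and 4248 against 1527 and 1132 in the proximal (called lower without GWTT-Proximal 1, −1.69) and 10272 and 8302 against 394 and 1563 in the distal colon (−3.55 ± 0.59, limma adjusted p = 0.012). Igkv6-15 was called lower in proximal GS4T libraries, at 2678 and 3080 against 289 and 710 (−2.66 ± 0.42, limma adjusted p = 0.020). In GA3T libraries Igkv6-15 went the other way in 1 proximal library (4611 and 550 against 2818 and 3239; called lower without GA3T-Proximal 1, −2.46) and overlapped its controls in the distal colon (4851 and 5439 against 2768 and 5598). Iglv1, the main lambda segment, was 2228 and 4368 against 585 and 1582 in proximal and 4855 and 8740 against 95.7 and 646 in distal GS4T libraries, with limma adjusted p of 0.098 and 0.015, and the proximal difference was called without GWTT-Proximal 1 (−2.18).

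Igkv10-96 and Igkv8-19 were among the most abundant in distal libraries. Igkv10-96 was 4918 and 4929 normalized counts in GWTT and 130 and 660 in GS4T (−4.06 ± 0.69, limma adjusted p = 0.013). Igkv8-19 was 3165 and 4621 against 0 and 49.3, and had the most negative fitted fold change of the immunoglobulin genes called (−9.08 ± 1.67, limma adjusted p = 0.016). Igkv4-58 (671 and 171) and Igkv1-99 (286 and 395) had 0 in both distal GS4T libraries, at least 136-fold and 110-fold lower against a floor of 3 reads per library. Among others called in the proximal colon, Igkv6-25 was 417 and 701 against 24.0 and 21.9 (−4.50 ± 0.34, limma adjusted p = 0.005) and Igkv8-21 was 1114 and 1014 against 87.6 and 116 (−3.39 ± 0.19, limma adjusted p = 0.004). In GA3T libraries Igkv1-110 was 559 and 6233 against 4859 and 10014 in the proximal colon, which overlap, and 788 and 1822 against 5848 and 12525 in the distal, below both controls (limma adjusted p = 0.116; called by DESeq2, −2.82). Calls were lost without 1 library for several of these: Igkv1-117 (without GWTT-Distal 1, −3.40), Igkv10-96 and Iglv1 (without GWTT-Distal 2, −4.06 and −4.28), Igkv8-19 (without either distal GWTT library, −9.35 and −8.80) and Igkv6-25 (without GS4T-Proximal 1, −4.56).

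Some heavy segments were missing from particular libraries rather than lower in a genotype. Of 72 heavy variable segments with at least 100 reads in some library, 33 had 0 reads in GA3T-Proximal 1, 20 in GWTT-Distal 1 and 23 in GA3T-Distal 1, while 38 had 0 in the antibody-poor GS4T-Distal 1 and 1 to 6 in each of the other 8 libraries. The first 3 libraries missed 19 segments in common. Of those 19, 12 had reads in at least 8 of the other 9 libraries: Ighv1-19, Ighv1-34, Ighv1-39, Ighv1-53, Ighv1-64, Ighv1-72, Ighv1-75, Ighv1-76, Ighv1-80, Ighv1-81, Ighv3-1 and Ighv3-3. These 3 libraries were singled out after their values were seen, so this is a description.

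Ighv1-81 showed it most plainly. It had 3698, 3455, 2114, 510, 4468, 3363, 551, 1000 and 5563 reads in the other 9 libraries and 0 in GA3T-Proximal 1, GWTT-Distal 1 and GA3T-Distal 1. GWTT-Distal 1 and GA3T-Distal 1 had 14017 and 15410 reads on the 72 segments in all, within the range of 1679 to 22568 over the 12 libraries, and GA3T-Proximal 1 had 3362. Ighv1-80 had 0 reads in the same 3 libraries and 10 to 1482 elsewhere, Ighv1-64 had 0 and 88 to 1381, and 38 of the 72 segments had reads in all 3. Ighg2c was also lowest in these libraries, at 65, 63 and 141 reads against at least 230 in the others. The 19 segments were spread from rank 12 to rank 93 of the 97 heavy segments counted outward from the constant regions. The libraries belong to 2 genotypes and both colon segments, and which mice they came from is not given in the labels. Whether their mice carry the same heavy chain locus as the reference genome was not tested. Low or absent reads of these segments and of Ighg2c may therefore not measure expression in these 3 libraries. The IgG sums and shares that hold Ighg2c, and possibly Igha and the ratio of Jchain to Igha, share this limit. A result on Ighv1-81 rests on this: in proximal GA3T it was 0 and 3693 normalized counts against 4023 and 3722, a fitted log2 fold change of −5.99 ± 3.77 (limma adjusted p = 0.414), called lower without GA3T-Proximal 2 (−11.9). Without the heavy variable segments the number of genes called lower was 22 in proximal and 58 in distal GS4T libraries, an alternative chosen after seeing the data.

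**Figure D5:**
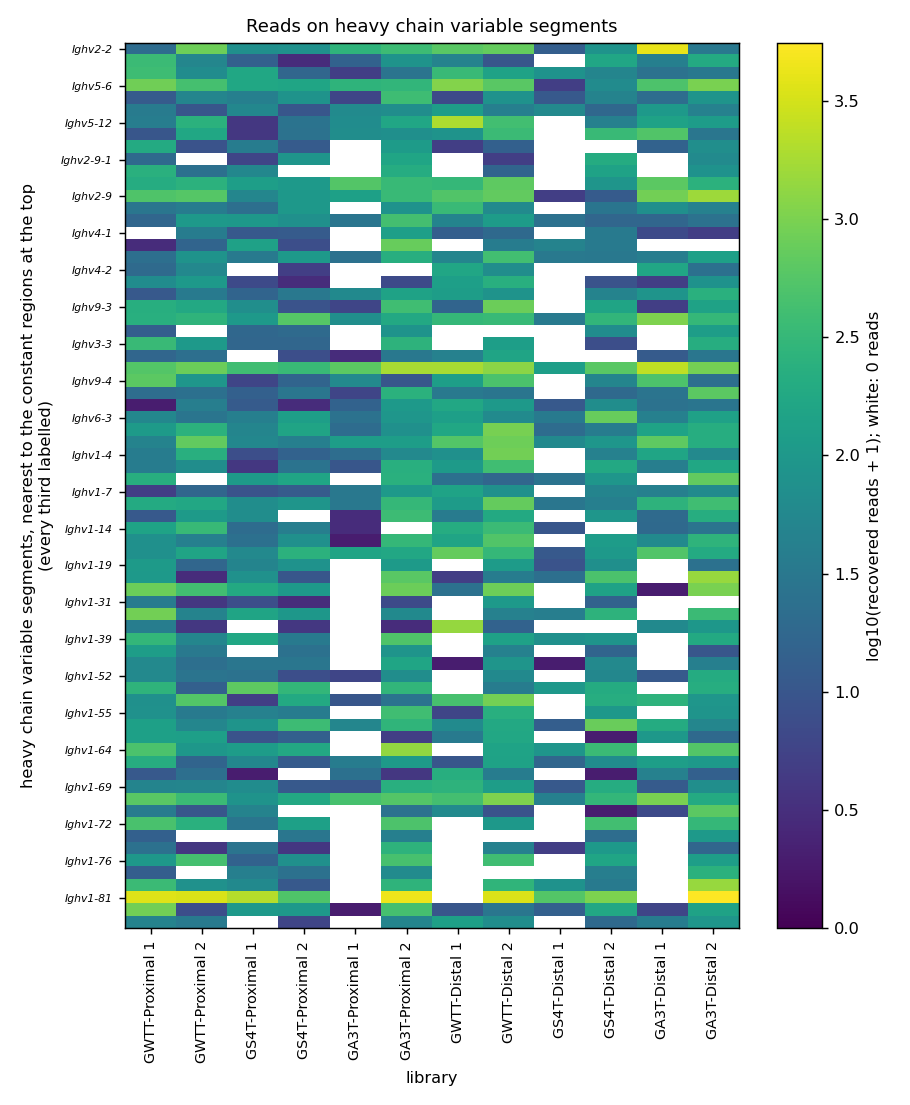
Recovered reads on heavy chain variable segments (log10(reads + 1), colour scale; white, 0 reads) by library (columns) for the segments with at least 100 reads in a library (rows, nearest to the constant regions at the top). The columns GA3T-Proximal 1, GWTT-Distal 1 and GA3T-Distal 1 are white for 19 rows in common, Ighv1-81 among them, and GS4T-Distal 1 is white for 38 rows.

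Kappa segment use was more concentrated in the GS4T libraries numbered 1 than in the other 10 libraries. Igkv1-110 took 42.8% of kappa variable reads in GS4T-Proximal 1 and 32.9% in GS4T-Distal 1, and the leading kappa segment took 10.2% to 29.0% elsewhere. The effective number of kappa segments (the inverse of the summed squared shares) was 4.71 and 6.53 in these libraries, against 16.5 to 21.7 in GWTT libraries and 22.4 and 20.4 in the GS4T libraries numbered 2, and 9.22 to 23.2 in GA3T libraries. Heavy segments set these libraries apart less plainly. Ighv1-81 took 32.3% and 32.5% of heavy variable reads in GS4T-Proximal 1 and GS4T-Distal 1, and the leading heavy segment took 10.2% to 27.5% elsewhere. The effective number of heavy segments was 7.99 and 7.69 there, the lowest of all, close to the 8.21 of GA3T-Distal 1 and the 9.81 of GA3T-Proximal 1. Absent heavy segments in those GA3T libraries may not measure expression, and the lowest of the remaining libraries was 10.9 in GWTT-Proximal 2. Those GA3T libraries had larger shares in their first 5 heavy segments, 62.2% and 65.2% against 53.8% and 55.5%. Thinned to 3283 kappa reads in every library, GS4T-Distal 1 had 30 segments, GS4T-Proximal 1 had 63.2 and the other 10 between 68.9 and 74.4. The 2 GS4T groups thus each held 1 library of concentrated and 1 of broad kappa segment use.

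Segment use was also compared between pairs of libraries, by the summed smaller share of each segment. For heavy segments, libraries of the same genotype and number from the proximal and distal colon shared a median of 64.2% (30.5% to 75.0% over 6 pairs), and libraries of the same group a median of 45.5% (27.96% to 59.6% over 6 pairs). For kappa segments the medians were 68.5% (45.5% to 82.4%) and 53.5% (47.8% to 71.0%). The ranges overlapped for both chains, and the lowest kappa value of these pairs, 45.5%, was that of the GA3T pair numbered 2, below every pair of the same group. Pairs of different genotype within a colon segment had medians of 50.0% for heavy and 55.2% for kappa segments over 24 pairs. The 30 remaining pairs had medians of 48.5% and 54.2%. Libraries of the same group were thus no more alike by the median than other pairs. The lowest heavy value of the same-numbered pairs was the GWTT pair numbered 1, which shared 60.8% of kappa segment use, and GWTT-Distal 1 is 1 of the 3 libraries without Ighv1-81. For GS4T the pair numbered 1 shared 74.3% of heavy and 74.4% of kappa segment use. Pairs have libraries in common, so no test is given.

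The fold change itself differed between colon segments for few genes. In a fit over both segments, with the GS4T effect in the distal minus that in the proximal colon, 1 of 167 immunoglobulin genes was called at an adjusted p under 0.05 (0.195% of all genes tested). This was Igkv19-93, a kappa variable segment: 173 and 220 against 49.8 and 46.8 normalized counts in the proximal colon and 794 and 643 against 23.9 and 17.6 in the distal, a difference of −3.06 ± 0.37 in log2 fold change (limma adjusted p = 0.047). That call was lost with a pseudocount of 0.1, with upper-quartile rescaling and with the replicate number as a block. On the unadjusted p 18 of the 167 differed, near the 10.1% of all genes tested, all with the distal effect below the proximal. The median difference was −1.89, against −0.03 over all genes. For the Alk3 knockout 0 of 178 were called by limma (0% of all genes tested). By an unadjusted p 10 were, near the 6.88% of all genes tested, 8 of them with the distal effect above the proximal.

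Outside the rule, 5 genes followed the immunoglobulin sum most closely over the libraries. The measure was Pearson's correlation of log2(normalized count + 1) with the log2 sum, over the 16 columns of the 4 tables (12 libraries, the controls entering both tables of their segment), among 14501 genes. They were Derl3 (0.985), which takes part in degradation of misfolded proteins in the endoplasmic reticulum, Ccr10 (0.983), the receptor by which IgA plasma cells follow the chemokine CCL28, Gm30211 (0.982), Lax1 (0.976), a lymphocyte adaptor, and Cacna1e (0.975), a calcium channel subunit. Ccr10 was 160 and 278 normalized counts in proximal GWTT libraries and 48.0 and 89.7 in GS4T, and 310 and 431 against 21.3 and 75.2 in the distal colon (log2 fold change −3.15 ± 0.59). In GA3T Ccr10 was 89.2 and 129 in the proximal and 152 and 215 in the distal colon, below both controls in each table. These correlations describe the libraries and share their depth and their sort. The 5 genes were picked by these same libraries, so lower Ccr10 in the knockouts follows from the choice and is no separate evidence.

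Other genes of plasma cells moved in both directions. Of 20 plasma cell genes other than immunoglobulins, 3 were called lower and 3 higher in proximal GS4T, and 9 lower and 2 higher in distal GS4T, where 4.36% and 5.25%, and 6.08% and 7.88%, of all genes tested were called. By limma and edgeR 0 were called in either GA3T table, where with the p left unadjusted 1 was lower and 2 higher in the proximal and 4 lower and 1 higher in the distal colon, and DESeq2 called 1 lower and 2 higher, and 2 lower and 1 higher. Of all genes tested 3.39% were lower and 6.07% higher unadjusted in the proximal and 2.23% and 5.54% in the distal colon, so these counts, other than the 4 lower, are near what a list of 20 genes would hold at those shares. Ly6c2 was lower (597 and 715 against 50.7 and 101 in the proximal colon, 1441 and 2076 against 20.4 and 127 in the distal, limma adjusted p = 0.010 in both), as was Irf4, the transcription factor that plasma cells need (379 and 774 against 113 and 188, limma adjusted p = 0.044, and 739 and 766 against 41.6 and 126, limma adjusted p = 0.008). Tnfrsf17, which encodes the survival receptor BCMA, was 110 and 133 against 0 and 7.05 in distal libraries (limma adjusted p = 0.018). Higher were Sdc1, the surface marker CD138 that epithelial cells also carry (694 and 1293 against 8992 and 7993, and 2337 and 2463 against 12422 and 15849), Cd38 (89.95 and 214 against 1106 and 930, and 298 and 311 against 1550 and 1502) and, in the proximal colon, Prdm1 (241 and 306 against 713 and 608). Xbp1, a regulator of secretory capacity shared by many secretory cells, was 5707 and 5141 against 3730 and 4827 in the proximal colon and 6319 and 6824 against 3630 and 4876 in the distal, and was not called.

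B cell genes were few in reads. Of 20, 4 were called lower in distal GS4T (6.08% of all genes tested). In proximal GS4T limma and edgeR called 0, DESeq2 called 1 lower, and with the p left unadjusted 1 was lower and 1 higher (against 7.01% and 8.96% of all genes tested). In both GA3T tables limma, with or without adjustment, edgeR and DESeq2 called 0. Pax5, the B cell identity factor, was 33.2 and 37.8 normalized counts in distal GWTT libraries and 0.886 and 1.17 in GS4T (limma adjusted p = 0.013). Cd79a and Cd79b, the signaling chains of the B cell receptor, were 332 and 429 against 27.5 and 57.5, and 141 and 187 against 18.6 and 38.8. Pax5 was not listed in the proximal tables, and Ms4a1, which encodes CD20, was at 13.3 or less in proximal GS4T and not listed in proximal GA3T. The 5 defining B cell genes together summed to 281 and 329 against 94.8 and 144 in distal GS4T and to 77.5 and 161 against 136 and 86.7 in proximal GS4T.

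Stromal and epithelial genes that draw plasma cells, keep them or carry their IgA were read in the same libraries. Of 22, in proximal GS4T 3 were called higher (Madcam1, Tgfb1 and Vcam1) and 2 lower (Tslp and Aldh1a1). In distal GS4T 4 were called higher (Madcam1, Cxcl13, Ccl28 and Pigr) and 5 lower (Aldh1a1, Tnfsf13b, Cxcl12, Tslp and Icosl). Of all genes tested 5.25% were called higher and 4.36% lower in the proximal and 7.88% and 6.08% in the distal colon. Tnfsf13b, which encodes the plasma cell survival factor BAFF, was 3545 and 3623 normalized counts in distal GWTT libraries and 896 and 1408 in GS4T (−1.67 ± 0.21, limma adjusted p = 0.006), and 4044 and 4124 against 2143 and 2210 in distal GA3T (limma adjusted p = 0.081). Proximal Tnfsf13b was 518 and 571 against 776 and 884 in GS4T (0.61 ± 0.13, limma adjusted p = 0.040), under the 2-fold limit. Cxcl12, which holds plasma cells in their niche, was 28171 and 24701 against 7823 and 9218 in distal GS4T (−1.64 ± 0.16, limma adjusted p = 0.003) and 18410 and 21987 against 16335 and 13666 in proximal GS4T. Ccl28, the ligand of Ccr10, was 27.4 and 30.0 against 98.3 and 154 in distal GS4T (limma adjusted p = 0.016). It thus rose where Ccr10, a gene picked by its likeness to the immunoglobulin sum, was lower. Pigr, the receptor that carries IgA across the epithelium, was 325 and 682 against 1185 and 3232 there. The 10 epithelial genes also summed higher in these libraries, at 1508 and 4609 against 14945 and 35494. Whether the higher Ccl28 and Pigr reflect the amount of epithelial RNA was not tested. In GA3T libraries limma and edgeR called 0 of the list. With the p left unadjusted 2 were higher and 1 lower in the proximal and 3 higher and 1 lower in the distal colon, and DESeq2 called 1 higher and 0 lower, and 2 higher and 1 lower. The unadjusted shares of all genes tested were 6.07% higher and 3.39% lower, and 5.54% and 2.23%, so the proximal counts were near the background.

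Markers of other cells moved with the genotype as well. The 12 macrophage genes summed to 4429 and 6762 normalized counts in proximal GWTT libraries and 32078 and 18543 in GS4T, with 9 called higher (5.25% of all genes tested), and to 14187 and 12848 against 42375 and 26878 in the distal colon, with 7 called higher (7.88% of all genes tested). Of 12 neutrophil genes 6 and 10 were called higher, with sums of 57.9 and 137 against 1346 and 1719 and of 122 and 73.6 against 3595 and 5339. The neutrophil gene Elane was unlisted in all 4 tables. The 10 epithelial genes summed to 388 and 18082 against 28814 and 42633 in the proximal and 1508 and 4609 against 14945 and 35494 in the distal colon, with 1 and 8 called higher. The 14 T cell genes ran the other way, at 1923 and 1576 against 933 and 1052 (3 called lower, 4.36% of all genes tested) and 1005 and 1522 against 711 and 737 (2 called lower, 6.08% of all genes tested). The 6 pan-leukocyte genes, of which limma and edgeR called 0 in any table and DESeq2 1 higher in proximal GS4T, summed to 2646 and 2949 against 3738 and 2988 and to 2802 and 3301 against 4773 and 3363. In GA3T libraries the same macrophage list summed to 17594 and 30424 against 4660 and 7110 in the proximal and 22920 and 20051 against 16185 and 14621 in the distal colon, with 0 called by limma or edgeR, 11 and 1 higher with the p left unadjusted, and 11 and 1 by DESeq2. The neutrophil genes, of which 8 and 7 were listed, summed to 268 and 936 against 56.6 and 131 in proximal and to 396 and 459 against 124.9 and 81.5 in distal GA3T, above both controls in each. The epithelial genes summed to 15673 and 22188 against 408 and 19012 in the proximal colon, which overlap, and to 23734 and 11089 against 1720 and 5245 in the distal, above both controls. The T cell genes overlapped their controls in both GA3T tables, at 1282 and 1740 against 2023 and 1657 and at 1082 and 2588 against 1147 and 1732. Of these 3 lists limma and edgeR called 0 in GA3T, where with the p left unadjusted 4 neutrophil genes were higher in each segment, 1 and 8 epithelial genes were higher, and 1 and 0 T cell genes were lower. DESeq2 called 4 and 3 neutrophil genes and 0 and 5 epithelial genes higher, and 0 T cell genes. Of all genes tested 6.07% were higher and 3.39% lower unadjusted in proximal and 5.54% and 2.23% in distal GA3T. DESeq2 called 676 of 15346 genes higher in the proximal and 612 of 15414 in the distal colon. The 1 distal macrophage gene, 1 proximal epithelial gene and 1 proximal T cell gene were thus near the unadjusted background. What part these other cells had in the lower antibody RNA was not tested. The 10 defining stromal genes summed to 864750 and 763471 against 842514 and 1056040 in proximal GS4T, which overlap, and to 917631 and 745136 against 969049 and 1010560 in distal GS4T, where both knockout libraries were above both controls.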

How the data were processed

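RNA from sorted tdTomato+ colon cells was sequenced after a SMARTER mRNA-Seq preparation. Per the submitters' processing notes, STAR 2.5.3, DESeq2 1.28.1 and the mm10 build were used, and only uniquely mapped reads were counted. The 4 deposited tables hold a signal per gene and library: read counts that the authors divided by DESeq2 size factors, separately for each table. Because these values are not raw counts, limma 3.58.1 was fitted on log2(normalized count + 1) for genes whose mean reached 10 in the table. Calls needed a 2-fold change and a p below 0.05 after the Benjamini-Hochberg step over all genes tested. All values were whole multiples of 1 read within 0.1 reads (100%), so whole reads were recovered and tested with edgeR 4.0.16 and DESeq2 1.42.0 as alternatives. R 4.3.3, Python 3.11.15, pandas 2.3.3, numpy 2.4.6 and scipy 1.17.1 were used. Intervals and floors of 3 reads cover counting error only, and reads are not independent molecules.

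Groups came from the labels, with 2 libraries in each, and no column of per-sample values was left unmapped (0). Named were all constant and joining genes, Jchain and Mzb1, the 5 most abundant variable segments of each table, up to 15 called genes per table by size of change, and up to 6 genes of each list. Several of those named were left out of the text, and values outside this rule were chosen after they were seen. The members, gene lists and tests were chosen with earlier results of these data known. The fits were tested on simulated data. Alternatives were other pseudocounts and filters, upper-quartile rescaling, each library left out, a replicate block and the count tools, and leaving out heavy variable segments, chosen after seeing the data.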

Additional observations from a re-analysis of the deposited data

Results flagged for a closer look

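The GS4T fold change of the kappa variable segment Igkv19-93 differed between colon segments by a test of the difference itself: the distal fold change minus the proximal was −3.06 on the log2 scale (SE 0.37, limma adjusted p = 0.047 over 14867 genes). It was 1 of 167 immunoglobulin genes, and 0 were called with a pseudocount of 0.1, with upper-quartile rescaling or with the replicate number as a block.

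Antibody reads also appeared in tables of other cells that no comparison here uses. Igkc and Igha are listed in 2 tables of cells from GA3M2 mice and their controls. In the distal table GA3M2-Distal 2 had 24.0 normalized counts of Igkc, against 2.88 and 2.19 in the controls and 1.96 in GA3M2-Distal 1, and 47.0 of Igha, against 13.4 and 0 in the controls and 4.89 in GA3M2-Distal 1. In the proximal table GA3M2-Proximal 2 had 18.4 of Igkc, against 1.83 and 0 in the controls and 2.01 in GA3M2-Proximal 1, and 39.7 of Igha, against 2.74 and 3.42 in the controls and 0 in GA3M2-Proximal 1. Of the 2 GA3M2 libraries of each colon segment, only the library numbered 2 was above both controls for both genes.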

How the results depend on the processing

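Counts below are immunoglobulin genes called. Of all genes tested DESeq2 called lower 5.95% in proximal GS4T, 1.91% in proximal GA3T and 1.06% in distal GA3T. With the replicate block these shares were 4.43%, 0.287% and 0.0908%. For proximal GS4T, 2 were called higher with no filter, and lower were 61 with the replicate block, 57 with DESeq2 and 70 with the p left unadjusted. For distal GS4T, 1 was higher with a pseudocount of 10, 5 with the replicate block and 1 unadjusted. For proximal GA3T, 3 were higher with DESeq2 and 7 unadjusted, and lower were 0 with a pseudocount of 0.1, 3 with 10, 10 with the block, 0 with edgeR, 27 with DESeq2 and 30 unadjusted. For distal GA3T, 2 were higher with the block, 5 with DESeq2 and 5 unadjusted, and lower were 3 with a pseudocount of 10, 10 with the block, 39 with DESeq2 and 48 unadjusted. Of differences between colon segments in GS4T, 0 were called with a pseudocount of 0.1, with upper-quartile rescaling or with the block. Unadjusted, 18 differed in GS4T and 10 in GA3T, near the 10.1% and 6.88% of all genes tested. Directions reversed for Ighg3 (distal GS4T, −1.54 with a pseudocount of 0.1), Ighg2b (distal GS4T, 0.70 with edgeR and DESeq2) and Ighg2c (proximal GA3T, 1.33 with edgeR and 1.34 with DESeq2). The cause was not tested.

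With each library left out in turn, calls higher and lower ran from 0 to 6 and 5 to 49 in proximal GS4T, 0 to 12 and 33 to 128 in distal GS4T, 0 to 1 and 0 to 7 in proximal GA3T, and 0 to 13 and 0 to 27 in distal GA3T. The distal GS4T log2 ratio of sums ran from −4.73 to −2.03 and the distal GA3T median from −1.48 to −0.56. Fold changes that turned ran, in proximal GS4T, for Ighg1 from −2.07 to 0.68, Bmpr1a −0.11 to 0.035 and Gli1 −5.35 to 0.55; in distal GS4T, for Ighg3 −5.09 to 5.24, Ighg2c −0.38 to 3.33 and Ighg2b −5.77 to 1.88. In proximal GA3T they ran for Iglc2 from −1.69 to 0.56, Ighg3 −0.17 to 1.82, Iglc1 −1.44 to 0.29, Ighg2b −0.62 to 0.053, Ighg2c −2.68 to 2.34, Ighm −1.25 to 1.13, Igkj3 −0.53 to 0.060, Ighg1 −0.59 to 2.16, Igkv6-15 −2.46 to 0.61, Smad4 −0.13 to 0.11 and Gli1 −4.90 to 0.28. In distal GA3T they ran for Ighd from −1.95 to 2.33, Igkj5 −1.64 to 0.17, Igkj4 −1.42 to 0.13, Iglc3 −0.25 to 1.16, Ighg2c −1.27 to 3.47, Ighg2b −0.13 to 1.35, Ighj3 −1.14 to 0.24 and Igkv6-15 −0.12 to 0.89. With a library left out, its group holds 1 library, assumed to vary like the others.

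The replicate numbers give only 2 pairs, and the labels do not say that a number marks a shared mouse or day. Deviations of same-numbered libraries correlated over all genes at 0.119, 0.0965, 0.107 and 0.191, across genes, which are not independent replicates. The replicate block moved the count called lower to 112 in distal GS4T, where it called 6.52% of all genes tested lower. With the block Igha, Igkc, Mzb1, Ighm, Iglc1, Iglc2, Ighv1-81 and Iglv1 were called lower in proximal GS4T, Igkj1, Igkj4 and Ighj3 lower and Ighg2c higher in distal GS4T, and Iglc2, Igkv1-117 and Igkv1-110 lower in distal GA3T.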
